A study of Homo sapiens with 6 samples.

Results

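The genes described here write, erase or help to place 2 linked repressive chromatin marks: the DNA methyltransferases DNMT1, DNMT3A and DNMT3B, the 5-methylcytosine dioxygenases TET1, TET2 and TET3, and the Polycomb repressive complex 2 (PRC2) genes EZH2, SUZ12, EED and JARID2. They were chosen by symbol, and all 10 were present among the 19871 gene symbols of the deposited tables, as 59 of 92866 listed transcripts. Each gene was followed as the sum of its transcripts and by single transcript.

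DNMT1 copies the methylation of CpG sites onto the new strand after replication, whereas DNMT3A and DNMT3B set methylation on sites that had none. The TET enzymes oxidise 5-methylcytosine and so start its removal. In PRC2, EZH2 is the methyltransferase that acts on histone H3, SUZ12 holds the core together, EED binds the finished mark and stimulates the enzyme, and JARID2 is an accessory subunit that helps to bring the complex to its targets. In colorectal cancer, many CpG island promoters that PRC2 marks in normal cells carry DNA methylation, and HCT116 is a colorectal carcinoma line widely used to study it.

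The libraries came from HCT116 cells in 3 groups of 2: NC, the control; GAS5, cells that received a plasmid for the long noncoding RNA GAS5; and siYAP, cells that received an siRNA against YAP, the transcriptional coactivator at the end of the Hippo pathway. All were strand-specific libraries of total RNA from 1 line, and the labels do not say what the NC cells were given, so transfection with a plasmid or an siRNA cannot be told apart from its cargo. The comparisons asked how the transcriptome of colorectal cancer cells responded to more GAS5 and to less YAP. The tables hold 1 value per group, the authors' mean of the 2 libraries, so no difference below has a replicate check, and none has a p-value. Intervals are 95% exact binomial (Clopper-Pearson) intervals on the counts and cover counting error only.

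Each group's mean library held 27206123 (NC), 25521577 (GAS5) or 26298036 (siYAP) counts. YAP1, the target of the siRNA, had 3480 counts in NC, 2679 with GAS5 and 1444 with siYAP, a log2 fold change of -1.15 (-1.22 to -1.09) in siYAP against NC. GAS5 itself was not analysed here, since only the mRNA tables were used. The epithelial genes KRT8, KRT18, KRT19, EPCAM, CDH1 and CLDN7 were abundant, whereas the intestinal genes CDH17 and VIL1 had 6 counts or fewer in each group. Of 8 markers of other cell types, 5 stayed under 10 counts in each group, with PTPRC and DCN at 0 in all. The other markers were detected. COL1A1 had 378.5, 556 and 540 counts in NC, GAS5 and siYAP, CD68 had 202.5, 279.5 and 203, and VWF had 31, 27.5 and 47. Over the 8 markers, the sum of FPKM (fragments scaled to transcript length and library size) ran from 6.765 in NC to 9.415 in GAS5.

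All 10 genes were expressed, over a wide range of levels. By length-scaled level (the sum of the authors' mean FPKM over a gene's transcripts), DNMT1 led in each group, followed by SUZ12 and EZH2, and TET1 was lowest in each. DNMT1 stood at 76.8 FPKM in NC, 78.2 with GAS5 and 54.1 with siYAP. In NC, DNMT1 was 8.40 times DNMT3B and 16.4 times DNMT3A, so RNA of the maintenance enzyme was far more abundant than RNA of the de novo enzymes. The PRC2 core was uneven at the RNA level too: SUZ12 was 3.03 times EED and EZH2 was 2.79 times EED in NC. EZH2 was 3.27 times its paralogue EZH1, the other catalytic subunit. DNMT3L, the inactive cofactor of the de novo enzymes in germ cells, was at 0 counts in every group.

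**Figure D1:**
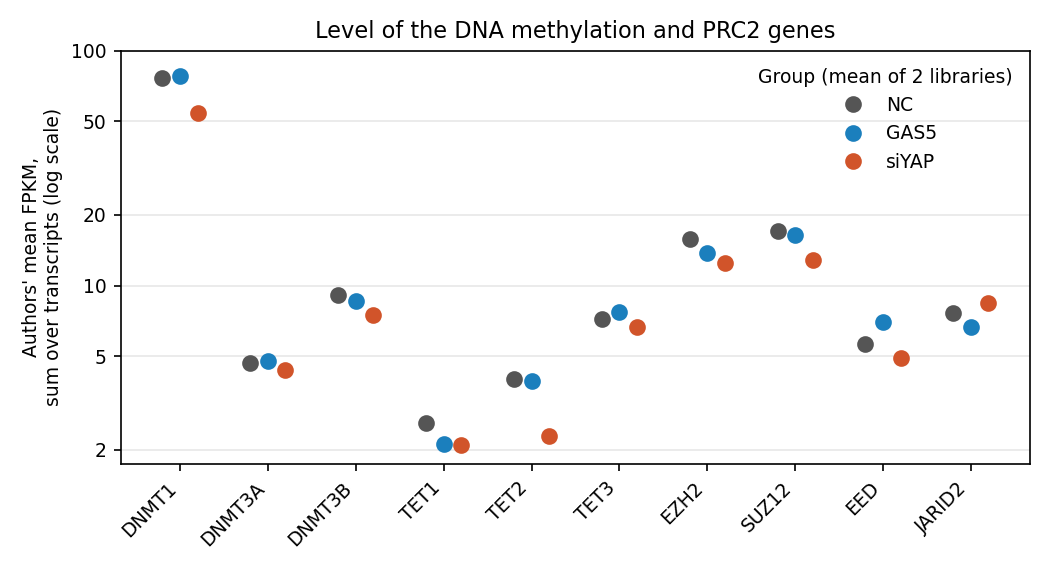
Level of each gene as the sum of the authors' mean FPKM over its transcripts (vertical axis, log scale) in NC, GAS5 and siYAP; each point is 1 group mean of 2 libraries, with no error available. DNMT1 lies above the other genes at 54.1 to 78.2, TET1 is lowest at 2.09 to 2.60, and JARID2 is the 1 gene whose highest point is siYAP.

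No gene of the 10 was past 2-fold in either comparison with NC, where 3.08% of 13379 genes tested (those that passed the filter on low counts) were past it for GAS5 and 2.24% of 13308 for siYAP. More of the 10 were below NC in siYAP than in GAS5, and the 2 comparisons share the NC values. In siYAP, 9 of the 10 were below NC, against 46.6% of all genes tested, with a median log2 fold change of -0.21 against 0.03 over all genes tested. JARID2 was the exception. In GAS5, 7 of the 10 were below NC, against 51.4% of all genes, with a median of -0.09 against -0.01, and the values ran from -0.24 for TET1 to 0.26 for EED. Among the 9404 genes with a mean of at least 300 counts, 46.4% were below 0 in siYAP, so the higher counts of these genes did not change the background. In bulk RNA, fewer cells of a kind and less RNA per cell cannot be told apart.

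**Figure D2:**
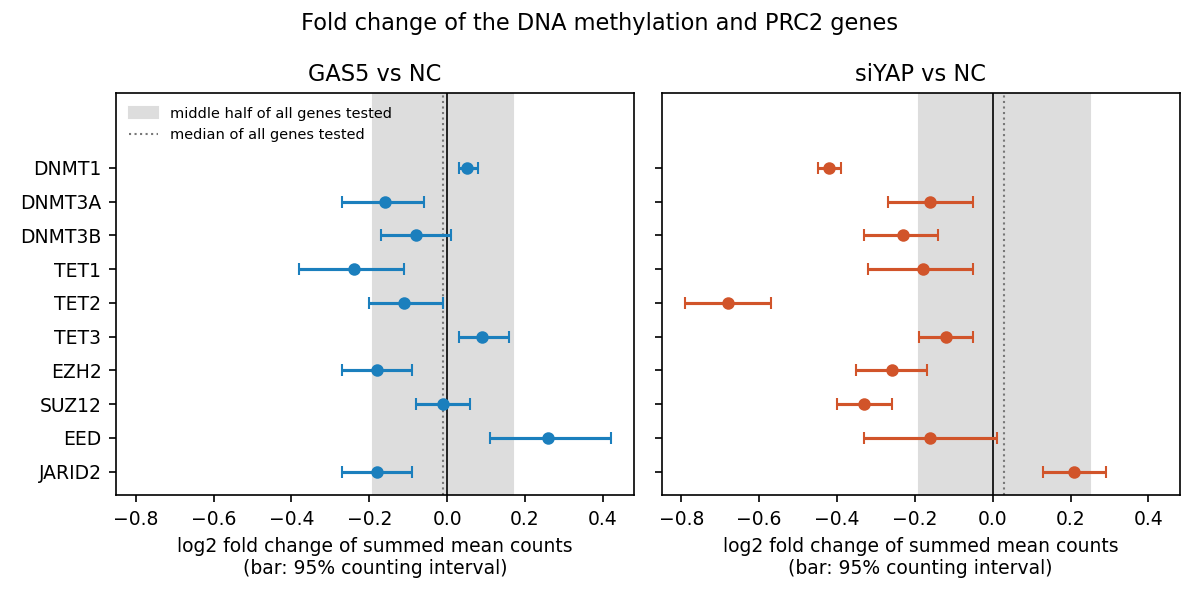
The log2 fold change of each gene's summed mean counts (horizontal axis) in GAS5 against NC and in siYAP against NC; bars are 95% counting intervals, the grey band runs over the range from the 25th to the 75th percentile of all genes tested and the dotted line is their median. In siYAP, TET2 (-0.68), DNMT1 (-0.42), SUZ12 (-0.33), EZH2 (-0.26) and DNMT3B (-0.23) lie below the band, and JARID2 lies above 0; in GAS5, TET1 (-0.24) lies below the band and EED (0.26) above it.

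DNMT1 (chr19:10133345-10231286, minus strand, GRCh38) had 10940 counts in NC, 10537 with GAS5 and 7525 with siYAP. The siYAP mean was the low one, and GAS5 lay near NC. The log2 fold change was -0.42 (-0.45 to -0.39) in siYAP and 0.05 (0.03 to 0.08) in GAS5. Only 9.6% of the genes tested had a lower value in siYAP. Nearly all DNMT1 counts came from 2 transcripts whose coding difference is a 48-base exon, exon 5 of the form that encodes the protein known as DNMT1b. They also differ in the outer ends of their first and last exons, so the split between them is not of that exon alone. The transcript without this exon (ENST00000340748, 1616 residues) had 5566, 5049 and 3926 counts in NC, GAS5 and siYAP. The transcript with it (ENST00000359526, 1632 residues) had 5126, 5189 and 3430. Both were below NC in siYAP, at -0.39 and -0.46 on the log2 scale, and the form without the exon kept 50.9% of the gene's counts in NC and 52.2% in siYAP. A minor assembled transcript, TCONS_00073405, had 38.1 counts in NC, 138 with GAS5 and 31.7 with siYAP, which made it the 1 DNMT1 transcript past 2-fold in GAS5 with a mean of at least 20 counts. It held 1.31% of the DNMT1 counts in GAS5.

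DNMT3B (chr20:32762385-32809356, plus strand) had 1047 counts in NC, 920.5 with GAS5 and 823.5 with siYAP, with siYAP lowest. The log2 fold change was -0.23 (-0.33 to -0.14) in siYAP and -0.08 (-0.17 to 0.01) in GAS5. Its transcripts differ by exons that decide whether the protein is an active enzyme. The leading transcript, ENST00000348286 (770 residues, known as DNMT3B3), lacks exon 10 and also exons 21 and 22, which lie in the catalytic domain, and its protein is known as an inactive form that assists the active enzymes. The next, ENST00000353855 (833 residues, DNMT3B2), lacks of these only exon 10 and is known as an active form. The exons are shown as they stand in the full-length transcript ENST00000328111 (853 residues, DNMT3B1), in capitals with 20 flanking bases on each side, because their presence separates these forms. Exon 10 lies at chr20:32793536-32793595, exon 21 at chr20:32805338-32805407 and exon 22 at chr20:32806209-32806327:

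DNMT3B exon 10: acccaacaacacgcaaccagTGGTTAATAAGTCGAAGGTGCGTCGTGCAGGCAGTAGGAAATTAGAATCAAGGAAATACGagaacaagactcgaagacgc
DNMT3B exons 21 and 22: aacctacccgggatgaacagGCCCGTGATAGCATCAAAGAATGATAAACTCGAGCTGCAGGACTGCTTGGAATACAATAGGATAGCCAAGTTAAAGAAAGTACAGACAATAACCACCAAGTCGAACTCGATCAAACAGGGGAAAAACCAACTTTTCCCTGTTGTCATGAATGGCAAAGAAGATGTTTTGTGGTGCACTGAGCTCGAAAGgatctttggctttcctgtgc

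DNMT3B3 had 606 counts in NC, 485 with GAS5 and 418 with siYAP. DNMT3B2 had 387, 407 and 336 in the same order. Summed over transcripts, those without exons 21 and 22 had 606 counts in NC, 497 with GAS5 and 436 with siYAP, and those with both exons had 441, 424 and 388. The forms without the catalytic exons thus made up 57.9%, 54.0% and 52.9% of the gene's counts, with a log2 fold change in siYAP of -0.36 (-0.49 to -0.23) against -0.07 (-0.21 to 0.07) for the forms with them. Full-length DNMT3B1 was scarce, with 26.1 counts in NC, 17.2 with GAS5 and 52.2 with siYAP, and was past 2-fold in siYAP at 1.06 (0.62 to 1.62). Neither DNMT3B3 nor DNMT3B2 holds a stretch of 50 bases absent from all other listed DNMT3B transcripts. The count given to each thus rests on the counting program's estimate. Set against each other alone, the 2 forms do differ in sequence, by exons 21 and 22, which DNMT3B2 holds and DNMT3B3 lacks.

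DNMT3A (chr2:25227855-25342590, minus strand) had 778.5 counts in NC and 644.5 in both GAS5 and siYAP. The log2 fold change was -0.16 in each comparison (-0.27 to -0.06 in GAS5 and -0.27 to -0.05 in siYAP). In GAS5 the direction depended on the unit, since the ratio of mean FPKM gave 0.02. The gene sum covered opposite movements of its long and short forms. The long protein of 912 residues is made from the first start region, and a start 90279 bases further on gives a shorter protein of 689 residues, known as DNMT3A2, that lacks the N-terminal part. DNMT3A2 is known from germ cells and embryonic stem cells and from some tumours. The 100 bases before the internal start lie at chr2:25252316-25252415 on the minus strand (RefSeq, GRCh38.p14). They are shown with their CpG sites in capitals, because the summed counts of the transcripts from this start were higher in siYAP:

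DNMT3A internal start: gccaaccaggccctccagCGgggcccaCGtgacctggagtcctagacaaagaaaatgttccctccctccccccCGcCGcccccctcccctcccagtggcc

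The 2 long transcripts together had 684 counts in NC, 526 with GAS5 and 514 with siYAP, a log2 fold change of -0.27 (-0.39 to -0.15) in GAS5 and -0.30 (-0.41 to -0.18) in siYAP. The 2 transcripts from the internal start had 69.6, 91.4 and 121 counts, a log2 fold change of 0.49 (0.18 to 0.83) in GAS5 and 0.90 (0.61 to 1.23) in siYAP. Per length the shift was wider: the long forms stood at 3.23, 2.66 and 2.27 FPKM, and the short ones at 0.955, 1.52 and 1.94 FPKM. Among single transcripts, the short ENST00000402667 had 49.7 counts in NC, 91.4 with GAS5 and 117 with siYAP (log2 fold change 1.31 in siYAP, 1.01 to 1.71). The long ENST00000321117 had 135, 108 and 53.0 (-1.20 in siYAP, -1.57 to -0.90), whereas the leading long transcript ENST00000264709 had 549, 418 and 461. The second short transcript, ENST00000380746, went the other way, with 19.9 counts in NC, 0 with GAS5 and 4.55 with siYAP. ENST00000406659, which begins in the first start region but encodes only 166 residues and is in neither sum, had 25.4, 27.2 and 9.21 counts (-1.19 in siYAP, -2.25 to -0.59). Of ENST00000402667, 47 of 2251 stretches of 50 bases occur in no other DNMT3A transcript of the tables.

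**Figure D3:**
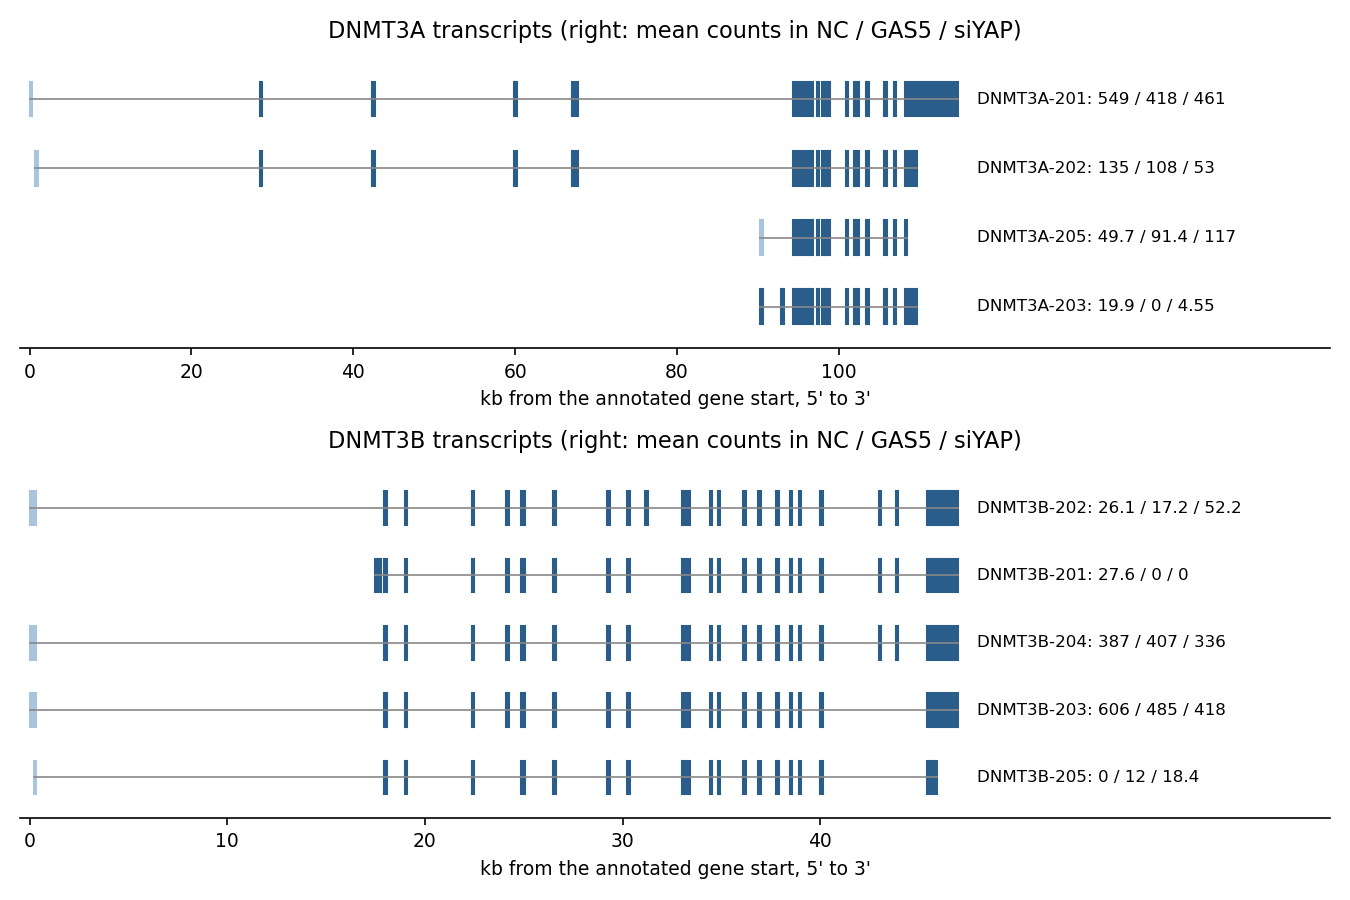
Exons (boxes; dark if they hold coding sequence, light if not) of DNMT3A and DNMT3B transcripts along the gene, in kb from the annotated gene start, with the mean counts in NC, GAS5 and siYAP at the right; exons too narrow to see are widened. DNMT3A-205 (ENST00000402667) begins inside the gene and has 49.7 counts in NC and 117 in siYAP, while DNMT3B-203 (ENST00000348286), which lacks 2 exons near the 3' end, has the most DNMT3B counts in each group.

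The 3 TET genes differed in level and in change. TET2 (chr4:105145875-105279816, plus strand) had 905.5 counts in NC, 780 with GAS5 and 522.5 with siYAP, and its log2 fold change of -0.68 (-0.79 to -0.57) in siYAP was the lowest of the 10 genes, with 3.5% of the genes tested below it. In GAS5 it was -0.11 (-0.20 to -0.01). The full-length transcript, ENST00000380013 (2002 residues), had 586 counts in NC, 489 with GAS5 and 382 with siYAP. The short ENST00000413648 (1167 residues), whose protein ends before the greater part of the catalytic domain, had 170, 219 and 71.2, and was past 2-fold in siYAP at -1.12 (-1.44 to -0.86). The 2 short forms together went from 307 counts in NC to 141 in siYAP, and the share of the full-length form in the gene's counts went from 64.7% to 73.0%.

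TET1 (chr10:68560656-68694482, plus strand) had 520 counts in NC, 407 with GAS5 and 422.5 with siYAP. It was the lowest of the 10 in GAS5, at -0.24 (-0.38 to -0.11), and stood at -0.18 (-0.32 to -0.05) in siYAP. The annotated transcript of the whole protein, ENST00000373644 (2136 residues), had 96.8 counts in NC, 30.8 with GAS5 and 49.3 with siYAP, and was past 2-fold in GAS5 at -1.49 (-1.97 to -1.12). Most TET1 counts were given to assembled transcripts of structure not given in the tables, led by TCONS_00014183 with 232, 176 and 176.

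TET3 (chr2:73986404-74108176, plus strand) was the most expressed TET gene, with 1685 counts in NC, 1669 with GAS5 and 1434 with siYAP. Its log2 fold change was 0.09 (0.03 to 0.16) in GAS5 and -0.12 (-0.19 to -0.05) in siYAP. Beneath that small change, 2 assembled transcripts moved in opposite directions in GAS5: TCONS_00078725 had 976 counts in NC, 616 with GAS5 and 713 with siYAP, and TCONS_00078724 had 173, 493 and 188. Their sum was 1149 in NC and 1108 in GAS5, a log2 fold change of 0.06 (-0.03 to 0.14). The annotated ENST00000305799 (1702 residues) had 537, 561 and 533 counts and moved least.

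EZH2 (chr7:148807383-148884321, minus strand) had 1120 counts in NC, 915 with GAS5 and 862.5 with siYAP. Both treated groups were below NC, at -0.18 (-0.27 to -0.09) and -0.26 (-0.35 to -0.17). Its leading transcript, ENST00000460911 (746 residues), had 779, 640 and 580 counts. The transcript ENST00000320356 (751 residues) has an exon 8 that runs 15 bases further, at chr7:148826454-148826468, and also begins at another base. These bases are shown in capitals with 20 on each side, because the longer form was the 1 EZH2 transcript with a mean of at least 20 counts past 2-fold in siYAP:

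EZH2 exon 8 extension: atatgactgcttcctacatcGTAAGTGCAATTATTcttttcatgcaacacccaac

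That transcript had 30.1 counts in NC, 25.1 with GAS5 and 59.5 with siYAP, a log2 fold change of 1.05 (0.64 to 1.58) in siYAP, and its share of the gene's counts went from 2.68% to 6.89%. ENST00000350995 (707 residues), which lacks the 117-base exon 4, had 157, 101 and 115 counts.

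SUZ12 (chr17:31937018-32001045, plus strand) had 1833 counts in NC, 1685 with GAS5 and 1348 with siYAP. It was lower in siYAP, at -0.33 (-0.40 to -0.26), and stood at -0.01 (-0.08 to 0.06) in GAS5. Most of it was carried by a pair of transcripts, of which 1 lacks exon 4. They also differ in the outer ends of their first and last exons, so their values are not those of exon 4 alone. The 69-base exon, at chr17:31947617-31947685, is shown in capitals with 20 flanking bases, because the form without it was further below NC in siYAP:

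SUZ12 exon 4: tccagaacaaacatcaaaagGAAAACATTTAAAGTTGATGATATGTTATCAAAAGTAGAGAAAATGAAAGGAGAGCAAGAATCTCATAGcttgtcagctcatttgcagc

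With the exon (ENST00000322652, 739 residues), counts were 1178 in NC, 1072 with GAS5 and 977 with siYAP. Without it (ENST00000580398, 716 residues), they were 541, 489 and 315. The log2 fold change in siYAP was -0.16 (-0.24 to -0.07) with the exon and -0.66 without it, and the share of the form with exon 4 went from 64.3% to 72.5%. The assembled TCONS_00057259 had 33.7 counts in NC, 64.0 with GAS5 and 0 with siYAP, at least 20.8-fold lower in siYAP, taking 3 counts over the group as the floor. SUZ12 has a partial pseudogene copy, so reads shared with it make these values less certain.

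EED (chr11:86244544-86278813, plus strand), with the fewest counts, had 324 in NC, 360 with GAS5 and 267.5 with siYAP. It was the highest of the 10 in GAS5, at 0.26 (0.11 to 0.42), and stood at -0.16 (-0.33 to 0.01) in siYAP, an interval that includes 0. The GAS5 gain lay in transcripts other than the leading one. ENST00000263360 (441 residues) had 246, 195 and 176 counts in the same order. ENST00000351625 (466 residues) had 53.9, 106 and 59.2 counts, past 2-fold in GAS5 at 1.06 (0.74 to 1.43), and holds a further coding exon of 75 bases besides other outer ends. EED-201 (ENST00000263360) held 76.0% of the EED counts in NC, 54.3% with GAS5 and 65.9% with siYAP, and EED-203 (ENST00000351625) held 16.6%, 29.5% and 22.1%.

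JARID2 (chr6:15246296-15522040, plus strand) had 1212 counts in NC, 991.5 with GAS5 and 1291 with siYAP. Its log2 fold change was 0.21 (0.13 to 0.29) in siYAP, where EZH2 and SUZ12 were below 0 and the EED interval included 0. In GAS5 it was -0.18 (-0.27 to -0.09), the same value as for EZH2. The long transcript (ENST00000341776, 1246 residues) had 1001 counts in NC, 699 with GAS5 and 982 with siYAP. The transcript from a second start (ENST00000397311, 1074 residues) had 211, 293 and 309, higher in both treated groups, at 0.58 (0.40 to 0.76) in GAS5 and 0.66 (0.48 to 0.84) in siYAP. The long form stood at -0.41 (-0.51 to -0.31) and 0.09 in the same comparisons. The 100 bases before the second start, at chr6:15248755-15248854 on the plus strand (RefSeq, GRCh38.p14), are shown with their CpG sites in capitals. They were chosen because the transcript from this start, though the scarcer form, was above NC in both treated groups:

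JARID2 second start: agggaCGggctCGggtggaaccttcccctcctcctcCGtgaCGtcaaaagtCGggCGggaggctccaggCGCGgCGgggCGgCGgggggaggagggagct

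**Figure D4:**
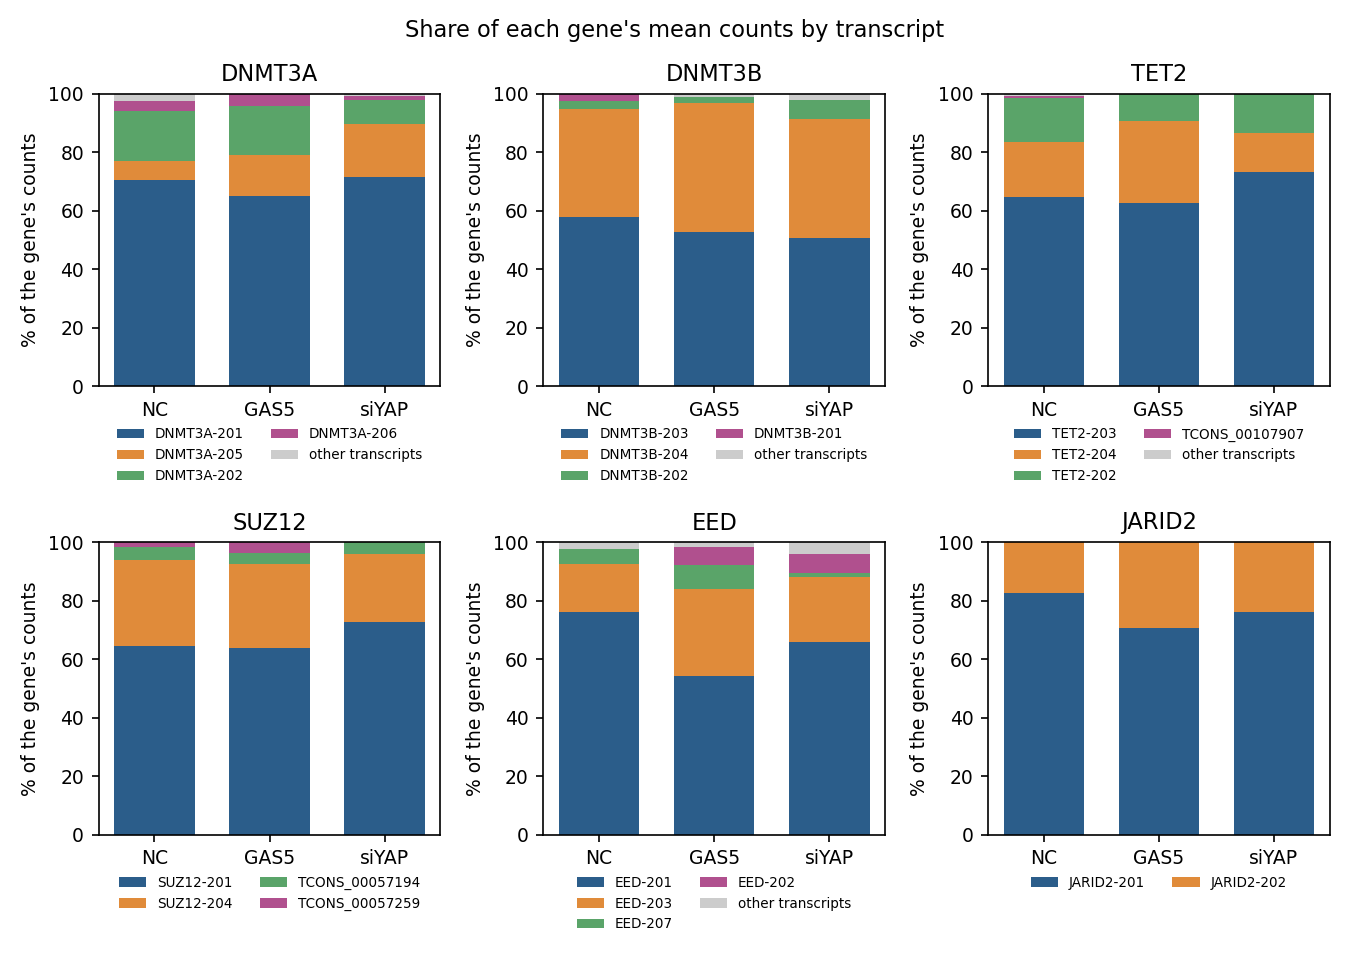
Share of each gene's mean counts (vertical axis, percent) by transcript in NC, GAS5 and siYAP for 6 of the genes; each bar is 1 group mean and the colours name transcripts within a panel only. The share of DNMT3A-205 is 6.38% in NC and 18.1% in siYAP, that of EED-201 76.0% in NC and 54.3% in GAS5, and that of JARID2-202 17.4% in NC, 29.5% in GAS5 and 23.9% in siYAP.

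Changes past 2-fold were common among single transcripts of all genes. Of the 59 transcripts, 8 were at 0 in all groups. In GAS5 against NC, 9 of 40 tested were past 2-fold (4 lower, 5 higher), against 20.2% of all transcripts tested. In siYAP against NC, 12 of 41 were past it (7 lower, 5 higher), against 20.9% of all. Of these, 5 of the 9 and 9 of the 12 had a mean under 50 counts, and 4 in each comparison were at 0 in 1 of the 2 groups compared. The assignment of reads to transcripts that share most of their sequence was not tested.

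Set directly against GAS5, siYAP gave lower values for 7 of the 10 genes, where 46.3% of all genes were lower, and none was past 2-fold, as 4.71% of 13386 genes were. The differences were widest for TET2 (-0.56, -0.67 to -0.45), DNMT1 (-0.47, -0.50 to -0.44), EED (-0.41, -0.57 to -0.25) and, in the other direction, JARID2 (0.40, 0.31 to 0.48). DNMT3A, TET1 and EZH2 had intervals that included 0. By transcript, 10 of 38 tested were past 2-fold, 8 of them lower in siYAP, against 22.7% of all transcripts.

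The factors that work with these genes were then examined as lists. Over all genes tested, 46.6% were below 0 in siYAP and 51.4% in GAS5, and the counts of each list stand beside these shares. Of the 10 maintenance and de novo partners tested, HELLS, PCNA, CDCA7 and UHRF1 were further below NC in siYAP than DNMT1, and the rest were not. HELLS, a chromatin remodeller needed for DNA methylation, had 4512 counts in NC, 3810 with GAS5 and 2114 with siYAP (log2 fold change -0.98 in siYAP). UHRF1, which brings DNMT1 to hemimethylated sites, had 4508, 5451 and 2623 (0.38 in GAS5 and -0.67 in siYAP). PCNA, the replication clamp that binds DNMT1, had 5782, 6919 and 3192, and CDCA7, the partner of HELLS, had 1173, 1369 and 669. UHRF1, PCNA and CDCA7 were above NC in GAS5 and below it in siYAP. Of the 12 listed partners, 8 of those tested were below 0 in siYAP and 5 in GAS5, with medians of -0.31 and -0.03. None was past 2-fold against NC, and UHRF1 (-1.04), CDCA7 (-1.01) and PCNA (-1.10) were when siYAP was set against GAS5.

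Replication and cell cycle genes moved in the same direction in siYAP. All 16 were below NC there under each of the 4 scalings tried, with a median of -0.59, and 2 were past 2-fold: MCM6 (3351, 3816 and 1429 counts in NC, GAS5 and siYAP; -1.11) and MCM4 (7662, 9614 and 3420; -1.05). In GAS5, 13 of the 16 were above NC, with a median of 0.20. DNMT1, UHRF1, PCNA and EZH2 are known to be expressed mainly in dividing cells, and the part of proliferation in the values of DNMT1, EZH2 and SUZ12 was not tested.

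Among 9 measured PRC2 cofactors, 7 were below 0 in siYAP and 5 in GAS5, with medians of -0.22 and -0.04, and none was past 2-fold. RBBP7, a histone-binding subunit, had 3831, 3220 and 2801 counts in NC, GAS5 and siYAP, and PHF19, a Polycomb-like protein that reads a mark of active genes, had 1205, 1292 and 902.5. PHF1, also Polycomb-like, had 712.5, 551.5 and 876, and EPOP, which joins PRC2 to elongin, had 1346, 1362 and 1539. PHF1 and EPOP were above NC in siYAP, as JARID2 was.

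PRC1, the second Polycomb complex, which ubiquitinates histone H2A and binds the PRC2 mark, showed no common direction. Of 25 genes, 10 were below 0 in siYAP (13 when scaled by total counts) and 14 in GAS5, with medians of 0.05 and -0.02. CBX8, a reader of the PRC2 mark, had 899, 836 and 1189 counts in NC, GAS5 and siYAP. PHC2 had 4283, 3462 and 5470, CBX6 had 7527, 6967 and 9554, and L3MBTL2 had 1074, 1356 and 1013. None of the 25 was past 2-fold.

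Enzymes that remove the PRC2 mark, or the PRC1 mark, were split. KDM6B, a demethylase of the PRC2 mark, had 1904 counts in NC, 1586 with GAS5 and 2769 with siYAP (0.65 in siYAP), and KDM6A, its X-linked relative, had 1041, 1122 and 809. BAP1, the H2A deubiquitinase, had 1982, 1875 and 2318, and its partner ASXL1 had 1991, 1650 and 1473. Of 5 tested, 3 were below 0 in each comparison.

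Methyl-CpG readers and factors around the TET enzymes moved little as lists. Of 8 readers, 5 were below 0 in siYAP and 4 in GAS5 (5 when scaled by total counts), with medians of -0.14 and -0.07. MBD4, a glycosylase that removes the product of deaminated methylcytosine, had 472, 443 and 285 counts in NC, GAS5 and siYAP, and MBD2 had 1942, 1379 and 1607. Of 14 demethylation partners, 9 were below 0 in siYAP and 7 in GAS5 (9 when scaled by total counts), with medians of -0.07 and -0.03. OGT, the glycosyltransferase that binds TET proteins, had 4249, 3224 and 2328 counts, and GADD45B had 556, 853 and 640.

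**Figure D5:**
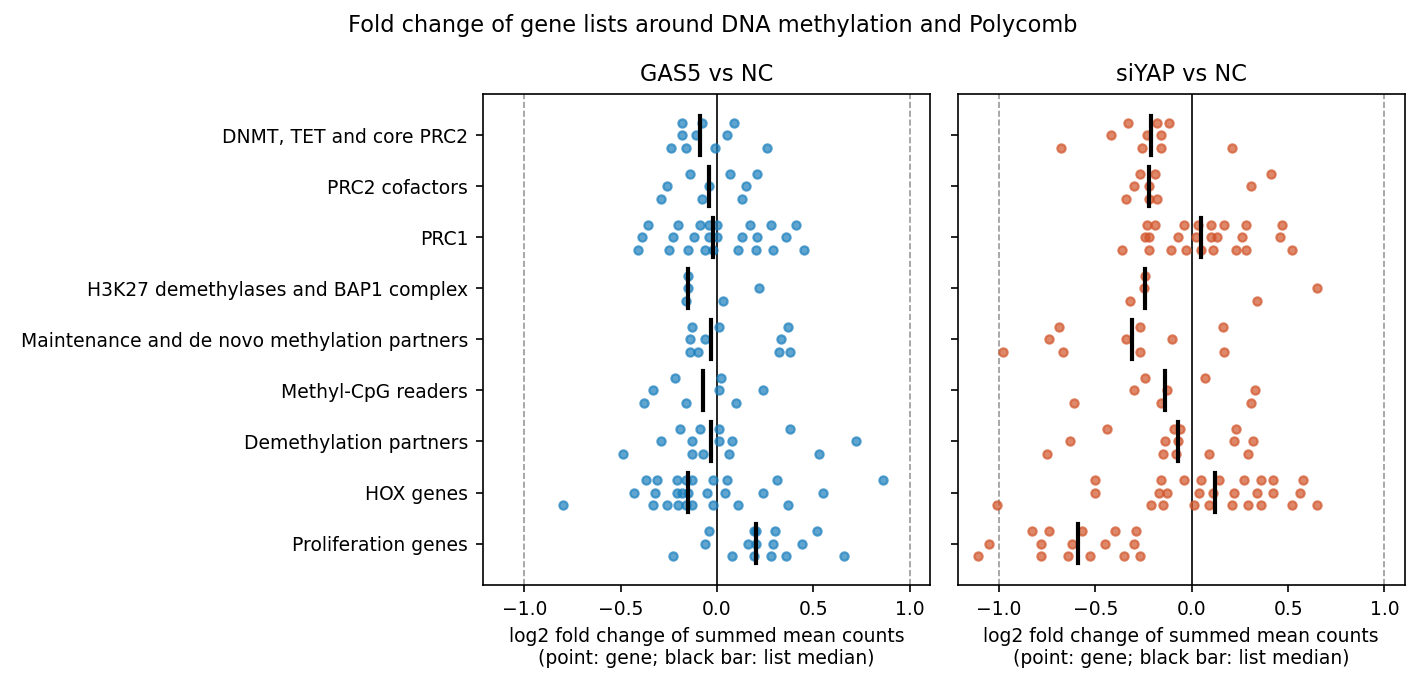
The log2 fold change of every tested gene (points) of the DNMT, TET and PRC2 genes and of 8 further lists, in GAS5 against NC and in siYAP against NC; black bars are list medians and dashed lines mark 2-fold. In siYAP the proliferation genes lie at a median of -0.59 and all below 0, the maintenance partners at -0.31 and the DNMT, TET and PRC2 genes at -0.21.

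Genes that DNA methylation or PRC2 is known to silence were read as well, without any measure of the marks themselves. Of 18 cancer germline genes, which methylation keeps off in most somatic cells, 15 stayed under 10 counts in each group and 7 were at 0 in all 3. The exceptions were MAGEB2 (4283, 5123 and 4811 counts in NC, GAS5 and siYAP) and MAGEA3 (2493, 3094 and 2827), which were on in NC already, and MAGEA6, which shares reads with its near copy MAGEA3 and had 8.2, 23.2 and 13.0 counts. MAGEA6, the 1 of these genes past 2-fold in GAS5, is named here after its values were seen. Of 23 genes with CpG islands often methylated in colon cancer, 13 stayed under 10 counts in each group and 9 were at 0 in all. Of the 10 tested, 8 were above NC in siYAP (7 when scaled by total counts) and 3 in GAS5. Over all genes tested, 7103 of 13308 were above NC in siYAP and 6503 of 13379 in GAS5. SOCS1, an inhibitor of cytokine signalling, was past 2-fold in siYAP with 63 counts in NC, 102 with GAS5 and 143.5 with siYAP (1.28). Of 28 HOX genes tested in siYAP, 9 were below 0 (12 when scaled by total counts), with a median of 0.12, and of 27 in GAS5, 19 were, with a median of -0.15. HOXB9 had 1112, 859 and 1537 counts in NC, GAS5 and siYAP, and HOXA13 had 178, 171 and 115.5. HOXA4, at 39, 20 and 17 counts, was the 1 HOX gene past 2-fold, in siYAP (-1.01), and is named here after its values were seen.

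Promoter sequence was read for 2 kinds of site: E2F-type sites, where the factors that drive S-phase genes bind, and TEAD-type sites, where the partners of YAP bind. Both strands of 300-base RefSeq windows (GRCh38.p14; 250 bases before the start and 50 from it on) were searched for TTTGGCGC, TTTCGCGC, TTTCCCGC and TTTGCCGC as E2F-type, and for GGAATG as TEAD-type. The E2F-type and TEAD-type letters do not overlap each other. An E2F-type match was found in 3 of 21 windows of the 10 genes, against 3.3% of 35116 windows in all, 1 each in DNMT1, EZH2 and SUZ12. They are shown as 100 bases with the match in capitals, because these genes were 3 of the 5 that lay below the 25th percentile of all genes in siYAP. The DNMT1 window is chr19:10194934-10195033 (minus strand), EZH2 chr7:148884272-148884371 (minus strand) and SUZ12 chr17:31936777-31936876 (plus strand):

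DNMT1: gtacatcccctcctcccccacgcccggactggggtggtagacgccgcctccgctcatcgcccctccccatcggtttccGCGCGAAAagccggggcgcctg
EZH2: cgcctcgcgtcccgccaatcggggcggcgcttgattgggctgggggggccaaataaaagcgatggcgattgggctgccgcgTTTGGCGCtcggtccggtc
SUZ12: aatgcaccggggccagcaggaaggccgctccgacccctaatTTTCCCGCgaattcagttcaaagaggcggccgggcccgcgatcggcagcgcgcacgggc

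The match began 2 bases before the RefSeq start in DNMT1, 1 base after it in EZH2 and 189 bases before it in SUZ12. The RefSeq start used for DNMT1 lies 126 bases downstream of that of ENST00000359526 and further downstream of that of ENST00000340748. The DNMT1 match thus lies within the first exon of both leading transcripts. A TEAD-type match was found in 2 of the 21 windows, against 14.0% of all, in EED and in an internal TET1 window. The EED match reaches across the start of ENST00000528180, a minor transcript with 16.6, 29.5 and 3.58 counts in NC, GAS5 and siYAP. That start lies 209 bases after the start of the leading ENST00000263360. The window chr11:86244673-86244772 (plus strand) is shown because TEAD factors are the partners of YAP:

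EED: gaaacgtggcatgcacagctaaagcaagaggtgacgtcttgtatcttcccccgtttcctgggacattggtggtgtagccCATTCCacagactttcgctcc

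TET2 and DNMT3B, the other genes below that band, had neither match, and the 1 DNMT3B window lies at the internal start rather than at that of the leading transcript. Of the 21 windows, 16 held more CpG sites than the median of 14 over all windows, from 3 in DNMT3B to 46. Each E2F-type pattern holds a CG, and the 3.3% share was not taken over windows of like CpG count. Some of the 21 windows, as in DNMT3A, also overlap each other. These matches describe the letters of the windows, and binding was not measured.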

How the data were processed

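Gene-level values were made from the 2 deposited mRNA tables of 92866 transcripts, joined by transcript identifier; their NC columns were identical. For each group the authors deposited 1 mean of 2 libraries, in the form of estimated counts per transcript from their counting program and as FPKM, in which 0 is written as 0.001. The labels' processing notes name TopHat2 2.1.1; the counting program, genome build and annotation are not given in the sources used here. The deposited columns of the authors' own comparisons (log2 fold changes, p-values and FDR) were not used. Of the transcripts, 12002 carry assembled identifiers and 339 have no symbol. Counts were summed by symbol. Group means were scaled by edgeR 4.0.16 TMM factors computed on transcripts that passed filterByExpr (minimum count 10) for each pair, and 2 was the prior count behind each log2 fold change. Since libraries cannot be separated, the planned count test was not run, and "past 2-fold" is a size rule. Intervals take the mean times 2 as the counts of a group, and a floor of 3 counts over a group bounds folds against 0. The scripts were tested on simulated data. Named were all 10 genes, their leading NC transcripts, transcripts with a mean of at least 20 counts that were past 2-fold in a comparison with NC or led in a group, the transcripts set against them, and from each other list up to 4 genes with the largest change among those with a mean of at least 50 counts. The genes and lists were chosen with earlier results of these data known. Transcript models and exon sequences are from GENCODE 29 (GRCh38), promoter windows from RefSeq. Scripts ran in Python 3.11.15, R 4.3.3 and DESeq2 1.42.0 (size factors only). A gene and the sequence of some exons are not reported here.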

Additional observations from a re-analysis of the deposited data

How the results depend on the processing

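No paired analysis was possible because values of single libraries are not given, only group means; so leaving out a replicate, the replicate block and the DESeq2 test were not run. Scaling by DESeq2 size factors, total counts or TMM on gene sums, other filters, a prior count of 0.5 and the ratio of mean FPKM (pseudocount 0.1) gave 189 alternative values. Counts past 2-fold moved with the filter, which sets how many features are counted: without a low-count filter, 955 genes in GAS5 against NC, 745 in siYAP against NC and 1203 in siYAP against GAS5, and 14 transcripts of the 10 genes in GAS5; with a mean of at least 50 counts, 128, 96 and 279 genes, and 4 transcripts in GAS5 and 3 in siYAP. The 10 genes kept their direction in siYAP under every setting; the range was -0.50 to -0.42 for DNMT1, -0.78 to -0.67 for TET2, -0.42 to -0.32 for SUZ12 and 0.14 to 0.21 for JARID2. In GAS5, DNMT3A ranged from -0.18 to 0.02, changing sign by FPKM ratio; the cause was not tested. Of 59 transcripts, 34 had a mean of at least 20 counts.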
